A study of Mus musculus with 2 samples.

Results

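Cadherins and protocadherins are the calcium-dependent adhesion proteins through which neurons recognise and hold other cells, and their probes were read here in mouse hippocampal cultures with and without tetrodotoxin (TTX), which blocks voltage-gated sodium channels and so silences action potentials. The members are all probes that are no array controls and whose gene name in the scanner files is Cdh followed by a digit or begins with Pcdh. This gave 98 probes of 70 genes, out of 55681 probes and 22146 named genes on the array. Of these genes 23 were cadherins and 47 protocadherins. The cells came from hippocampi of ICR mouse embryos at embryonic day 16.5, and both cultures were grown in 5.5% serum, were treated with Ara-C at 5 µM, which stops dividing glia, and were harvested at 12 days in vitro. The TTX culture had the toxin for the last 2 days, at a dose that the labels state in conflicting units, 2 µM in one field and 2 mM in another, and the control culture is labelled without it. Each culture was hybridised to 1 single-colour Agilent array on the same slide, so there were no replicates, no p-value could be given, and no difference below has a replicate check.

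In a cadherin the extracellular repeats bind the same kind of molecule on the facing membrane, and the tail of the classical members holds catenins, which tie the contact to actin. The non-clustered protocadherins lack a catenin-binding tail, and several delta-2 members instead bind the WAVE actin regulator and other partners. The clustered protocadherins are encoded by alpha, beta and gamma arrays of variable exons, each with its own promoter. A neuron uses a small set of them, through promoter choice with CTCF and cohesin, and the combination serves as an identity tag by which its branches avoid one another.

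The results turn on a few probes of the non-clustered protocadherins, and these are shown so that the transcript each one reads can be identified. Each line gives the first 30 of the 60 bases of a probe, as the scanner files hold it, in lower case. Coordinates are those of mm9 in the files, and the exon annotation of that build was not used here. Pcdh19 was read at chrX:130122356-130122415 on the minus strand. Pcdh10 was read by a probe whose ends lie at chr3:45196739-45203246, a span of 6508 bases, so its bases come from separate stretches of the genome, and by another at chr3:45186832-45186891, both on the plus strand. Pcdh8 was read at chr14:80166728-80166787 and Pcdh20 at chr14:88865889-88865948, both on the minus strand.
Pcdh19: agagctttccctaaatgtattgtgtataag
Pcdh10 spanning: aaggagttggacggattgctgtctaataca
Pcdh10 upstream: gtcactcttggcatctccttattttgagtc
Pcdh8: aatgtgttggaattgctcattgggatttta
Pcdh20: atatcttagtgcactcttcgctggtcagca

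A gene was called measured when a probe of it was well above background on both arrays (at least 0.5 of its spots), and it took the value of its brightest such probe. Signals are intensities after quantile normalization, differences are log2 of TTX over control, and the ± after a difference is the error that Feature Extraction assigns to the spot, which covers the array and not the culture. Of the 70 genes 51 were measured, 4 were above background on 1 array only, and 15 on neither. Among all genes with a symbol 14016 were measured, with a median difference of 0.01 and quartiles of -0.23 and 0.24. Over 251 probes printed in 8 or more spots the SD of the difference between spots was 0.15, with 0.30 in the dimmest of 5 classes of signal and 0.06 in the brightest. The share of spots called well above background was 54.2% in control and 52.2% in TTX.

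As a whole the family lay close to the rest of the array. Pcdh19 was the only member at least 2-fold higher in TTX at its brightest probe, 1 of 51 against 2.09% of all genes, and no measured member was 2-fold lower, against 3.40% of all genes. At 1.5-fold, 3 members were higher and 5 lower, or 5.88% and 9.80% of them, against 7.66% and 8.64% of all genes. The median over the 51 was -0.005, from -0.89 for Pcdh10 to 1.37 for Pcdh19. The shares past either size are near those of all genes, and what follows is a description of single genes and subfamilies on these 2 arrays.

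**Figure D1:**
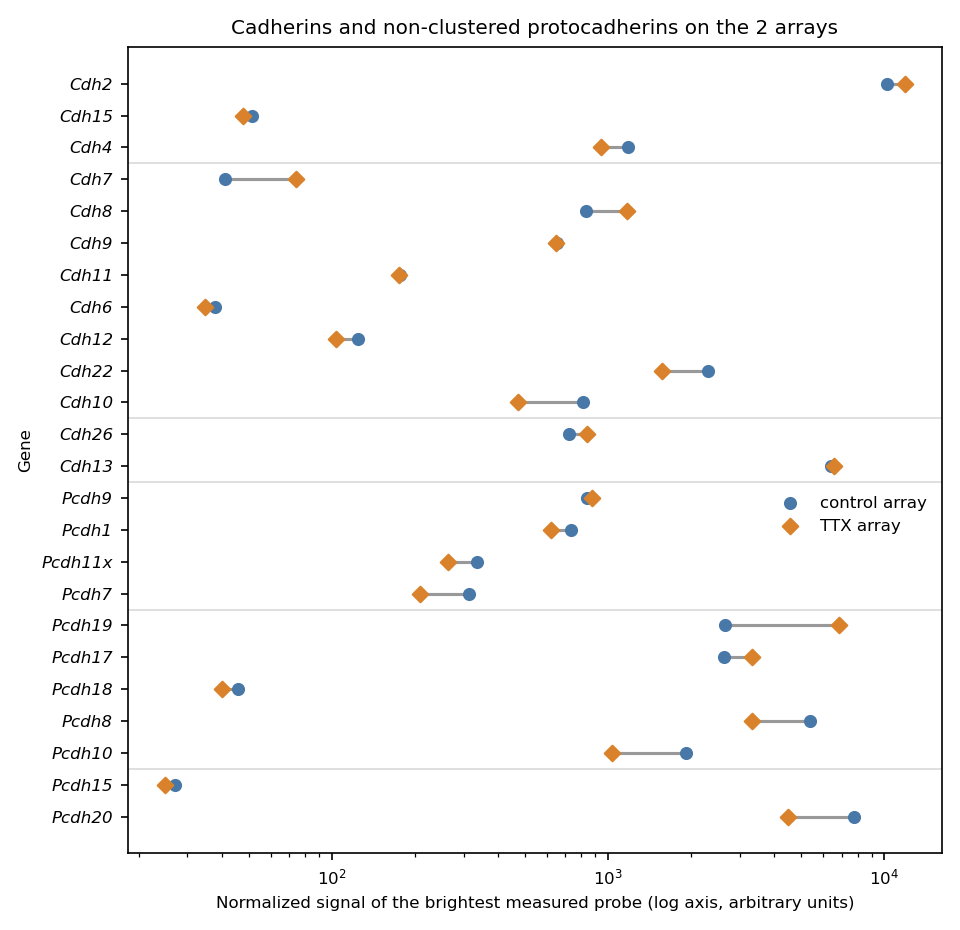
Normalized signal (log axis, arbitrary units) of the brightest measured probe of each cadherin and non-clustered protocadherin gene on the control array (circles) and the TTX array (diamonds), with horizontal lines between subfamilies. Among the wide gaps are those of Pcdh19 (2656 and 6850), Pcdh10 (1910 and 1032) and Pcdh20 (7763 and 4481).

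The delta-2 protocadherins held the 2 ends of the family. Pcdh19, an X-linked adhesion protein whose loss causes a clustering epilepsy in heterozygous females, had a signal of 2656 in control and 6850 in TTX, a log2 difference of 1.37 ± 0.20 or 2.58-fold. It was read by 1 probe in 1 spot, in row 283 of 384, and the difference stayed between 1.17 and 1.37 under the other normalizations and filters. Pcdh10, a protocadherin that binds the WAVE complex and takes part in synapse removal, was the lowest, with 1910 in control and 1032 in TTX at the brighter probe (-0.89 ± 0.20). Its other probe, with 587 and 259, was at -1.18 ± 0.21, so both probes of Pcdh10 were lower, on either side of the 2-fold line.

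Pcdh8, also called arcadlin, is a protocadherin known for induction by neuronal activity and for drawing N-cadherin into the cell through the kinase TAO2. Its signal was 5404 in control and 3330 in TTX, a difference of -0.70 ± 0.20, which does not reach 2-fold. Pcdh17, known from presynaptic assembly in corticobasal ganglia circuits, was higher by less than 1.5-fold (2625 and 3314, 0.34 ± 0.20), and Pcdh18 was dim on both arrays (45.9 and 40.2, -0.19 ± 0.28). Of the 5 delta-2 genes 2 were above 0 and 3 below.

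The other large gap among the non-clustered genes was in Pcdh20, an adhesion protein of neurons, which went from 7763 to 4481 with TTX (-0.79 ± 0.20). Pcdh15, the tip-link protein of hair cells, had 7 probes, of which 1 was above background on both arrays, at signals of 27.0 and 24.8 (-0.12 ± 0.40). Pcdh12, the vascular endothelial member, was not well above background on either array.

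Of the delta-1 protocadherins, Pcdh7 was lower at all of its 3 measured probes, which gave -0.59, -0.71 and -0.42. Its brightest went from 313 in control to 209 in TTX (± 0.21). Pcdh1 was lower by less (732 and 619, -0.24 ± 0.20; -0.56 at the dimmer probe). Pcdh9 was nearly level at its brightest probe (842 and 877, 0.06 ± 0.20) and at 0.21 and 0.37 at its dimmer ones. In the 4 genes of this subfamily the median was -0.30, and -0.094 with the mean over the probes of each gene, where Pcdh11x was at 0.51.

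Pcdh11x, an X-linked delta-1 gene, was lower at 2 of its measured probes and higher at the other. The 3 probes are shown because the reading depends on which is used. None of the transcripts listed for these probes could be matched to a RefSeq gene. All are on the plus strand, at chrX:117405435-117405494, chrX:117515420-117515479 and chrX:118019923-118019982, in this order from the 5′ side of the gene, and each line again holds the first 30 bases.
Pcdh11x probe A: aggaaagactttttaggggttgagtgaaga
Pcdh11x probe B: tccagcagttctgatccctacagtgtttct
Pcdh11x probe C: ttctccaatcatagaggaacaccccttgta
Probe A, the brightest, went from 336 in control to 263 in TTX (-0.36 ± 0.21). Probe B was dimmer and lower as well (39.6 and 25.8, -0.62 ± 0.36). Probe C went the other way, from 41.7 to 235 (2.50 ± 0.24), the largest difference of any measured member probe. It sits in row 9 of the array. In its class of signal, the second dimmest of 5, 2-fold higher values in TTX made up 7.19% of the probes in rows 1 to 48, and 2.18% of those in rows 193 to 384. The part of spot position in this value was not tested.

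**Figure D2:**
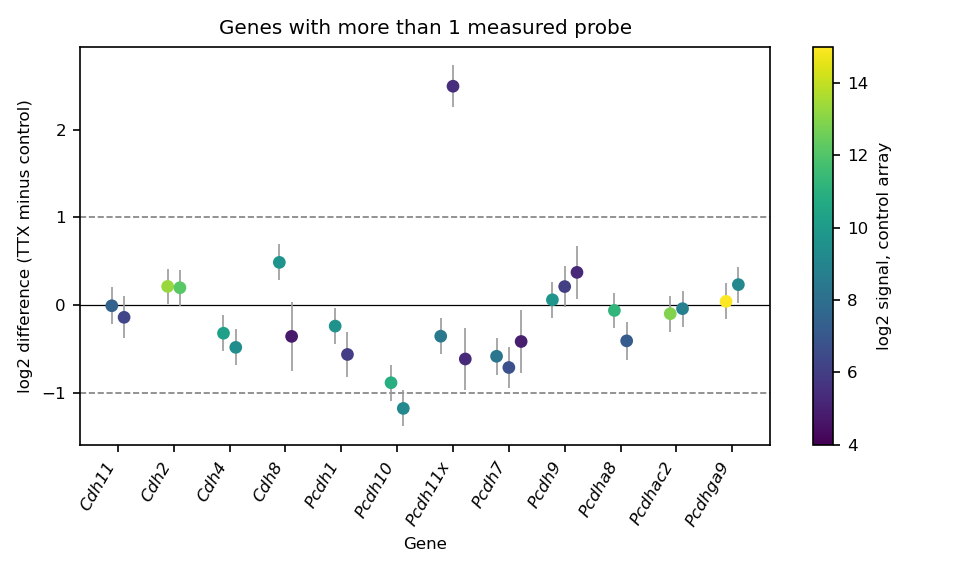
Difference (log2, TTX minus control) at every measured probe of the 12 genes with more than 1, brightest probe first, coloured by log2 signal on the control array, with the Feature Extraction error as bars and dashed lines at 2-fold. Probes of Cdh8 and Pcdh11x lie on both sides of 0, whereas the probes of Pcdh10 and Pcdh7 lie below it.

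In the 12 genes with several measured probes the range between probes had a median of 0.30, against 0.20 for the 4124 such genes of the array. Of the 12, Cdh8 and Pcdh11x had probes on both sides of 0, and the share of such genes over the array was not counted.

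Among the type I classical cadherins, which form the catenin-bound adherens contacts of the synapse, N-cadherin (Cdh2) was slightly higher at both probes. Its signals were 10253 in control and 11877 in TTX at the brighter one (0.21 ± 0.20) and its other probe was at 0.20 ± 0.20, about 1 Feature Extraction error from 0. The difference of Cdh2 depended on the scaling, with 0.015 under spike-ins, 0.071 without normalization and 0.077 with 75th percentile scaling. R-cadherin (Cdh4) was lower at both measured probes, with 1181 and 944 at the brighter (-0.32 ± 0.20) and -0.48 at the other. The muscle cadherin Cdh15 was dim (51.4 and 47.8, -0.11 ± 0.27). The epithelial Cdh1 was read in 9 spots with signals up to 9.01 and was not well above background on either array, and neither was the placental Cdh3.

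Type II cadherins, which sort neuronal populations and mark hippocampal synapse types, were divided. Cdh10 (810 in control and 471 in TTX, -0.78 ± 0.20) and Cdh22 (2307 and 1570, -0.56 ± 0.20) were lower. Both were past the 95% limits of the Feature Extraction error, which 13.9% of all genes exceeded downwards and 13.4% upwards. Another 2 type II genes, Cdh7 and Cdh8, were past these limits upwards. Cdh7 was higher (41.2 and 73.9, 0.84 ± 0.27) at 1 of its probes, the other 2 not being well above background. With normexp background correction its difference was only 0.36. Cdh8, a cadherin found at mossy fibre synapses, was higher at its brightest probe (834 and 1169, 0.49 ± 0.20) and lower at a dim one (-0.36 ± 0.39). Cdh9, which is concentrated in dentate granule and CA3 neurons, had 652 in control and 650 in TTX (0.00 ± 0.20). Cdh12 was lower (124 and 103, -0.26 ± 0.22), Cdh6 was dim (37.7 and 34.6, -0.12 ± 0.31), and Cdh11 was level (176 and 175, -0.01 ± 0.21).

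The type II probes do not all read 1 gene with certainty. The probe of Cdh9 shares 50 identical bases with the probe of Cdh6 and 41 with that of Cdh10, so cross-hybridisation among them is possible, and its part in these values was not tested. No other pair of member probes from different genes shared 40 bases or more. Probes were compared only with each other and not with the transcripts of other members. The comparison therefore cannot show that the remaining probes read 1 gene. Of the 8 measured type II genes 2 were above 0 and 6 below, with a median of -0.07. Cdh20 was above background on the control array only (36.0 and 14.6) and was at least 1.83-fold lower in TTX. A fold of that kind is taken against the lowest signal called above background on the dimmer array, or against the gene's own signal there where that is higher.

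The truncated cadherin Cdh13, which is held to the membrane by a lipid anchor, had 6400 in control and 6562 in TTX (0.04 ± 0.20). Cdh26 was at 0.22 ± 0.20 (720 and 840). The endothelial Cdh5 and Cdh16, Cdh17, Cdh18, Cdh19, Cdh23 and Cdh24 were not well above background on either array.

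**Figure D3:**
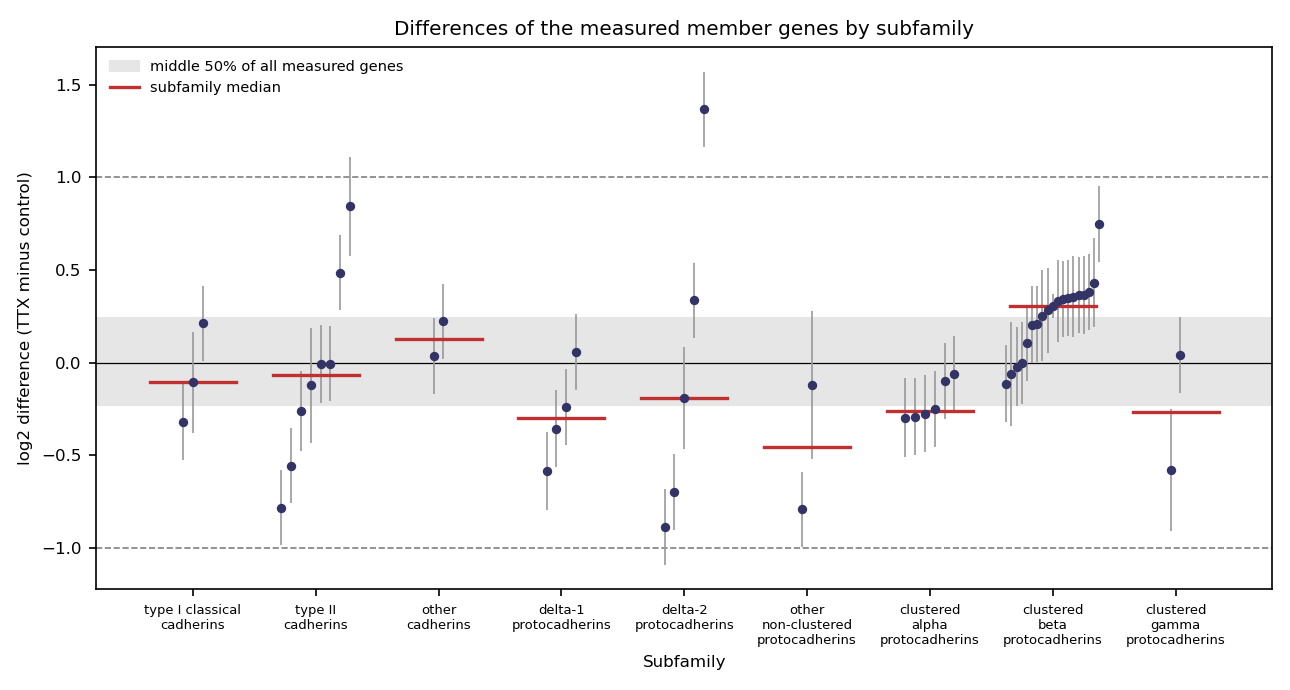
Difference (log2, TTX minus control) of the 51 measured genes by subfamily, each point a gene at its brightest probe with the Feature Extraction error, red lines the subfamily medians, the grey band the range between the quartiles of all measured genes and dashed lines 2-fold. The beta protocadherins centre on 0.31 and the alpha protocadherins on -0.26.

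The clustered families differed from each other in direction on these arrays, in small steps spread over many genes. They share 1 locus on chromosome 18. Of the 19 measured beta genes 15 were above 0, against 51.1% of all genes, with a median of 0.31 and quartiles of 0.16 and 0.36. All 6 measured alpha genes were below 0, against 48.8% of all genes, with a median of -0.26 and a range of -0.30 to -0.06. None of the 25 passed 2-fold. Whether a beta probe also reads transcripts of other beta genes was not tested. Only Pcdhb3 and Pcdhb18 were past the 95% limits of the Feature Extraction error, which 13.4% of all genes exceeded upwards.

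Pcdhb18 was the highest of the beta genes, with a signal of 222 in control and 373 in TTX (0.75 ± 0.21). Pcdhb5 (54.1 and 72.9, 0.43 ± 0.24) and Pcdhb16 (430 and 560, 0.38 ± 0.20) followed it. The lowest were Pcdhb10 (200.1 and 185, -0.11 ± 0.21), Pcdhb8 (42.2 and 40.4, -0.06 ± 0.28) and Pcdhb9 (137 and 135, -0.02 ± 0.21). The gene measured most closely was Pcdhb3, whose probe was printed in 10 spots: its signals ran from 278 to 337 on the control array and from 353 to 395 on the TTX array. The 2 sets of spots did not overlap. The difference of Pcdhb3 was 0.31, between 0.15 and 0.43 at single spots with an SD of 0.10. These are spots of the same RNA and not replicates.

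The beta values are given in the order of the genes along the cluster, as a description with no test of order. Pcdhb2 to Pcdhb6 were at 0.37, 0.31, 0.28, 0.43 and 0.37. Pcdhb7 to Pcdhb10 were at 0.11, -0.06, -0.02 and -0.11. From Pcdhb12 to Pcdhb22 the measured genes lay between 0.21 and 0.75, apart from Pcdhb13 at 0.00. The probes sit in different rows of the array. Medians were 0.29 for the 10 genes with a spot in rows 1 to 192 and 0.34 for the 9 in rows 193 to 384. With centring on spot position and signal the beta median was 0.24, and the part of spot position was not tested. Pcdhb1, Pcdhb11 and Pcdhb19 were not well above background on either array.

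**Figure D4:**
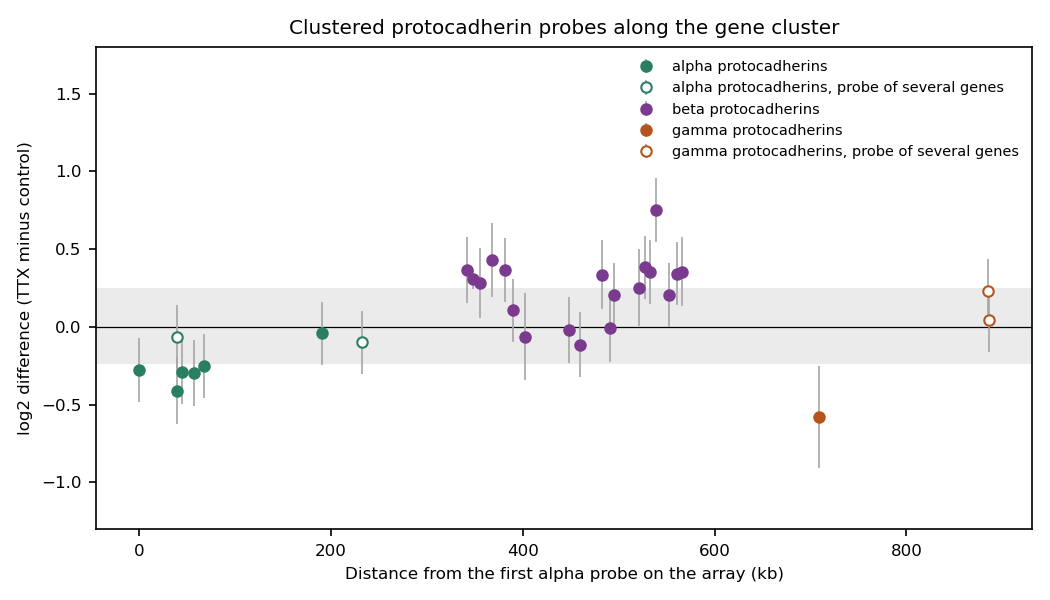
Difference (log2, TTX minus control) of each measured clustered protocadherin probe against its distance from the first alpha probe (kb), with the Feature Extraction error as bars; open circles are probes listed for several genes and the grey band is the range between the quartiles of all genes. The beta probes lie mostly above 0, and the alpha probes lie below it.

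In the alpha array, Pcdha11 had 162 in control and 132 in TTX (-0.30 ± 0.21), Pcdha9 had 265 and 217 (-0.29 ± 0.21), Pcdha4 had 266 and 220 (-0.28 ± 0.21) and Pcdha12 had 410 and 345 (-0.25 ± 0.21). All 4 are within the 95% limits of that error around 0 and point the same way. The files list several alpha genes for the brighter probe of Pcdha8 (2355 and 2255, -0.06 ± 0.20) and of Pcdhac2 (7800 and 7283, -0.10 ± 0.20), so these read more than the gene they are named for. Their other probes, listed for 1 protocadherin each, were at -0.41 and -0.04. Pcdhac1 was not well above background on either array. Over the 6 alpha probes listed for 1 protocadherin the range was -0.41 to -0.04.

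The gamma array could hardly be resolved by gene. Both probes of Pcdhga9 are listed for several gamma genes, and they lie downstream of the probe of Pcdhgc5, the last variable exon. They had 34697 in control and 35708 in TTX (0.04 ± 0.20) and 0.23 ± 0.20. What they read is transcripts of several gamma genes together. Pcdhga1 was dim (40.9 and 27.4, -0.58 ± 0.33). Pcdhgc5 was above background on the control array only (38.8 and 11.3; at least 1.98-fold lower), as was Pcdhgb1 (25.5 and 20.9), for which no fold is given. Pcdhga10 was above background on the TTX array only (5.08 and 33.1; at least 2.07-fold higher), in row 62. Among the dimmest probes measured on both arrays, 5.28% of those in rows 1 to 192 were 2-fold higher, and the part of position here was not tested. Of all genes above background on TTX only 54.2% had a bound of 2-fold or more, so a bound of this size is common among them. Of those on control only, the share was 17.6%. Pcdhga5 was not well above background on either array.

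The proteins that work with cadherins were read as a chosen list of catenins and junction proteins, of which 14 of 15 on the array were measured. None passed 2-fold, against 2.09% of all genes higher and 3.40% lower. Of the 14, 10 were above 0, against 51.1% of all genes, with a median of 0.23. Under spike-in scaling the list's median was 0.12 and that of all genes -0.09. Afadin (Afdn, 39.0 and 59.1, 0.60 ± 0.26), the junction scaffold Tjp1 (0.50 ± 0.20) and the actin-binding alpha-catenin Ctnna1 (2241 and 3169, 0.50 ± 0.20) were highest. Pkp2 (-0.36 ± 0.20), Pkp4 (-0.10) and vinculin (Vcl, -0.10) were lowest. Beta-catenin (Ctnnb1), the partner of the classical tail, had 6058 in control and 7238 in TTX (0.26 ± 0.14).

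In the large and divergent cadherins 2 of 13 measured genes were at least 2-fold higher, against 2.09% of all genes, and none was 2-fold lower, against 3.40%. Dchs1, which pairs with Fat4 in planar polarity, had 767 in control and 2205 in TTX (1.52 ± 0.20), and the seven-pass cadherin Celsr1 had 242 and 566 (1.22 ± 0.21). Cdhr1 (0.70 ± 0.25) came next. Fat4 was at 0.47 ± 0.21. The calsyntenin Clstn3, a synaptic organiser, was lowest (14315 and 8771, -0.71 ± 0.20), followed by Fat2 (-0.64 ± 0.25) and Fat3 (-0.34 ± 0.20, with -1.10 at its other probe). The list's median was 0.24.

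Genes that set clustered protocadherin promoters were all measured, 19 of 19 on the array. The median was 0.21, and 14 were above 0, against 51.1% of all genes. None passed 2-fold, against 2.09% of all genes higher and 3.40% lower. With spike-in scaling this median was 0.054 and that of all genes -0.09. Smchd1, a silencer of the clustered locus, had 1951 in control and 2957 in TTX (0.60 ± 0.20), Dnmt3b was at 0.49 ± 0.34, with -0.07 at its other probe, and the cohesin partner Pds5b at 0.47 ± 0.20, with 0.11 at its other probe. Wapl, which releases cohesin, was lowest (-0.38 ± 0.20), with Pds5a (-0.18) and Dnmt3a (-0.10) next. CTCF itself (Ctcf) was at 0.23 ± 0.20.

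Shedding enzymes and signalling partners had a median of -0.02 over 28 measured genes, 14 on each side of 0. The kinase Prkca was 2-fold lower (20622 and 10152, -1.02 ± 0.20, with -1.48 at its other probe). It was 1 of 28 at that size, against 3.40% of all genes, and none was 2-fold higher, against 2.09%. The WAVE complex subunits Nckap1 (16816 and 9761, -0.78 ± 0.20), through which Pcdh10 reaches actin, and Wasf1 (17054 and 10258, -0.73 ± 0.20) were next. The complex did not move as a whole. Its subunits Cyfip1 (-0.28), Wasf3 (-0.25), Abi1 (-0.22), Cyfip2 (-0.10), Abi2 (-0.08) and Brk1 (0.04) were nearer 0. Wasf3 and Abi2 each also had a probe above 0 (0.16 and 0.19). Fyn and Pak1 (0.55 each, ± 0.20) and the WAVE protein Wasf2 (0.53 ± 0.20, with its lowest probe at -0.26) were highest. The kinase of the Pcdh8 pathway, Taok2, was at 0.07 ± 0.20.

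**Figure D5:**
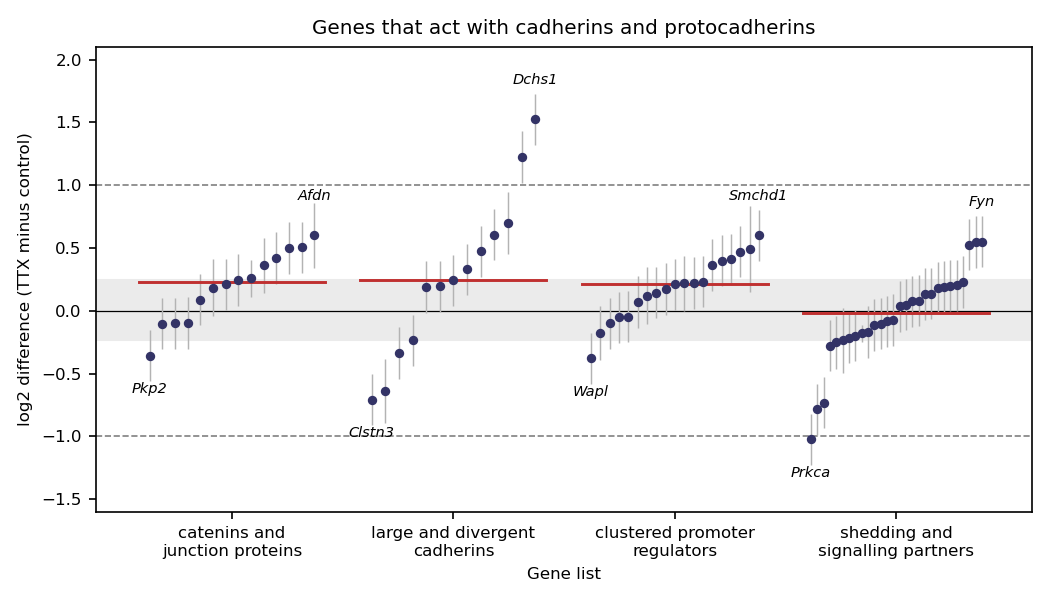
Difference (log2, TTX minus control) of each measured gene of 4 lists of partners, with the Feature Extraction error as bars, red lines the list medians, the grey band the range between the quartiles of all genes and dashed lines 2-fold. Dchs1 and Celsr1 lie above the upper 2-fold line and Prkca just below the lower one.

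Bulk RNA cannot tell fewer cells of a type from less RNA per cell, and marker signals differed between the cultures as well. Neuron markers were all measured (11 of 11), with summed signals of 216885 in control and 204383 in TTX and a median of -0.22, from -1.20 for the neurofilament Nefm to 0.47 for Tubb3. Astrocyte markers had summed signals of 52155 and 62481 with a median of 0.24 over 9 of 10, from -1.05 for the glutamate transporter Slc1a2 to 0.78 for Gfap. For fibroblast and meningeal markers the sums were 1453 and 2171 (9 of 10), for microglia 19233 and 21364 (7 of 10), for oligodendrocyte lineage cells 2120 and 2516 (6 of 9), for dividing cells and radial glia 14152 and 18880 (6 of 9), for choroid plexus 353 and 444 (4 of 5) and for endothelial cells 2575 and 2191 (4 of 9). In the fibroblast sum the gene furthest apart was Fbln1 (109 and 567, 2.38 ± 0.21). The proliferation marker Mki67 went from 31.6 to 352 (3.48 ± 0.26), whereas Ccnb1 was above background on the control array only. Top2a and Cdk1 were not well above background on either array. Most of the microglial sum was 1 gene, Itgam (18172 and 20323). Cldn5 and Cdh5 of endothelium, Olig2 and Sox10 of oligodendrocytes, and Cx3cr1 and P2ry12 of microglia were not well above background on either array. Some other markers of these lists were measured, among them Kdr (2445 and 2071), Mbp (915 and 919) and Tyrobp (167 and 252). The part of cell makeup in the family's differences was not tested.

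Upstream sequence is shown for the 3 delta-2 genes with the widest gaps, 250 bases up to the RefSeq transcript start in GRCm38.p6 (Pcdh19 at chrX:133688994-133689243, minus strand; Pcdh10 at chr3:45378148-45378397, plus; Pcdh8 at chr14:79771313-79771562, minus). Of the 70 member genes 22 had a promoter in that table, in 25 windows. Capitals mark the cyclic AMP response element half-site TGACG and the GC box GGGCGG, on either strand.
Pcdh19: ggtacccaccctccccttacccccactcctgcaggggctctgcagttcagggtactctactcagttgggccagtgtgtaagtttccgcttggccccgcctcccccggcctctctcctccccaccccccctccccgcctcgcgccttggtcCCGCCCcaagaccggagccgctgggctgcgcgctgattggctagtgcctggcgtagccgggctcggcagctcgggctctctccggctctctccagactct
Pcdh10: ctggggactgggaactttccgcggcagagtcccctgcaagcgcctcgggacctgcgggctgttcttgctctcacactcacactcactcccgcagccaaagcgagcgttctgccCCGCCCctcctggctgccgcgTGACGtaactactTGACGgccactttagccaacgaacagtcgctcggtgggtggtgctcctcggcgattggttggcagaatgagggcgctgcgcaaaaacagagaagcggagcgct
Pcdh8: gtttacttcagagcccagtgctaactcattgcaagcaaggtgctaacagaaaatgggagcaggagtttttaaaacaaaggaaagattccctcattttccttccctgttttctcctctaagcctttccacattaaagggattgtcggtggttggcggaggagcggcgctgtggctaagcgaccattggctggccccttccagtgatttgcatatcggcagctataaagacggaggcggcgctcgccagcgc
The window of Pcdh10 held the half-site in 2 places, and those of Pcdh19 and Pcdh8 held none. The half-site occurred in 4 of the 25 member windows and in 17.8% of the 32851 windows of all genes. The full element TGACGTCA, which contains the half-site on both strands, and the AP-1 site TGACTCA were in none of the 25, against 1.55% and 4.46% of all windows. The GC box was in 9 of 25 and in 32.7% of all, and the E-box CANNTG in 13 of 25 and in 66.2% of all. The windows of Pcdh19, Pcdh10 and Pcdh8 were 69.2%, 63.2% and 51.2% G or C, where the median of all was 52.4%.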

How the data were processed

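The deposited scanner files hold, per the file headers, each spot's intensity with local background already taken off, in linear units. Flags for background, saturation and outliers are other deposited columns of 0 or 1. The software was Feature Extraction, with 10.7.1.1 in the file headers and 9.5.1.1 in the submitters' processing notes. The deposited value table, also intensity, had a median of 24.9 on both arrays. Quantile normalization is named in the series' design text. Every log2 difference was computed here from the deposited intensities with Python 3.11.15.

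Spots marked as outliers were left out, signals were quantile normalized and taken to log2, and spots of a probe were averaged. Names and promoters came from RefSeq tables of GRCm38.p6, and all 98 member probes kept their symbol. With 1 array per condition there was no test, and 2-fold served as a rule of size. The members and lists were chosen with earlier results of these data known. Named are members at 2-fold, the 3 highest and 3 lowest of each subfamily and list, and a set of well-known members. Alternatives were other scalings, normexp (limma 3.58.1, offset 50), filters, folds and probe rules, and centring on 8 blocks of rows and 5 classes of signal. The steps were tested on simulated data.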

Additional observations from a re-analysis of the deposited data

How the results depend on the processing

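No paired analysis was possible because each condition had 1 array. Pcdh19 stayed at least 2-fold higher (1.17 to 1.37) under every scaling, background correction, filter and probe average run. Members at least 2-fold higher numbered 0 at 3-fold and 0 where 2 or more probes had to pass (Pcdh19 has 1), 2 with no filter, 2 with 1-array genes at their bound and 3 at 1.5-fold. Members lower numbered 1 with spike-in scaling, 1 with the mean over probes, 5 with no filter and 5 at 1.5-fold. All genes higher and lower, 293 and 476, numbered 147 and 301 with normexp, 1062 and 1368 with no filter, 1073 and 1211 at 1.5-fold, 94 and 163 at 3-fold, and 37 and 63 where 2 or more probes had to pass. Spike-in scaling put the median of all genes at -0.09. Beta genes above 0 were 15 to 18 of 19 over the scalings, and alpha genes below 0 were 6 of 6. With 75th percentile scaling the medians were 0.064 for type I cadherins, -0.032 for delta-2 protocadherins and 0.14 for large cadherins. Under spike-ins they were 0.0016 for type I, -0.032 for other cadherins, 0.12 for catenins, 0.074 for large cadherins, 0.054 for promoter regulators and -0.15 for signalling partners. Without normalization they were 0.057 for type I, 0.024 for other cadherins, -0.038 for delta-2, 0.13 for large cadherins and 0.11 for promoter regulators. Normexp gave -0.0036 for type I, -0.0035 for delta-2, 0.20 for beta and -0.060 for gamma. No filter gave -0.24 for type II, -0.12 for the other non-clustered protocadherins and -0.43 for gamma. The stricter filter gave -0.79 and 0.041 for the last 2, each the value of a single gene (Pcdh20 and Pcdhga9). The delta-1 median was -0.094 with the mean over probes, where Pcdh11x was at 0.51 and Cdh8 at 0.064. Gamma was at -0.58 without shared probes, which is the value of a single dim gene, Pcdhga1. Apart from filters, which change the genes kept, the cause was not tested. Dim members (Cdh6, Cdh7, Pcdh15, Pcdh18) are limited by signal over background.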
